A study of Mus musculus with 8 samples.

Results

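Mouse Cyp3a enzymes are microsomal cytochrome P450 monooxygenases. Their genes Cyp3a11, Cyp3a13, Cyp3a16, Cyp3a25, Cyp3a41a, Cyp3a44 and Cyp3a59, 7 of 28073 genes in a deposited count table, were chosen by gene name and followed in liver RNA from mice on 2 diets. The choice was made with earlier results of these data known. The livers came from 8 C57BL/6 mice that were 21 to 22 weeks old; C57BL/6 is an inbred line widely used in diet studies. Of these mice, 4 had the control diet, which the series describes as low in fat, and 4 had the high-fat diet. The labels name no allele and no agent other than diet. The sources used here do not give diet composition, length of feeding, sex or time of collection.

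Cyp3a enzymes sit in the endoplasmic reticulum of hepatocytes, where they hydroxylate steroids, bile acids and many drugs with electrons from P450 oxidoreductase, encoded by Por. Their best known activator is the pregnane X receptor (PXR, Nr1i2), which binds DNA together with a retinoid X receptor. The constitutive androstane receptor (CAR, Nr1i3) acts on many of the same genes. Cyp3a11 is the classic PXR target of mouse liver, Cyp3a41a and Cyp3a44 are known as female-predominant forms, and Cyp3a16 as a fetal and neonatal form.

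All members lie on chromosome 5 of mm10. Cyp3a13 stands apart on the minus strand, from 137892932 to 137921619. The others belong to a cluster that runs for 768.0 kb, from 145345279 to 146113287. Its members are, in order, Cyp3a16 (145436309 to 145469723), Cyp3a41a (145694049 to 145720136), Cyp3a44 (145773983 to 145805874), Cyp3a11 (145854426 to 145879964) and Cyp3a25 (145977194 to 146009618), all on the minus strand, and Cyp3a59 (146079257 to 146113287) on the plus strand. Cyp3a25 and Cyp3a59 therefore point away from each other, with 69.6 kb between their starts.

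These neighbours are near-copies, and their promoters are shown because both transcripts were called higher on the high-fat diet. Both stretches end just before the annotated start, are written 5′ to 3′ on the gene's own strand and come from RefSeq (GRCm38.p6). Cyp3a25 is read from chr5:146009619-146009867 on the minus strand and Cyp3a59 from chr5:146079008-146079256 on the plus strand. Capitals mark the 11 of 249 positions at which they differ, which gives an identity of 95.6%.
Cyp3a25: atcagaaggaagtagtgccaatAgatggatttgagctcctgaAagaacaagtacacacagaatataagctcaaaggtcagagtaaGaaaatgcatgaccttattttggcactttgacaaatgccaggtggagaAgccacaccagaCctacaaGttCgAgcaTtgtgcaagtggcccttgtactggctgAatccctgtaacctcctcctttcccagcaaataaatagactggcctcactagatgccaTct
Cyp3a59: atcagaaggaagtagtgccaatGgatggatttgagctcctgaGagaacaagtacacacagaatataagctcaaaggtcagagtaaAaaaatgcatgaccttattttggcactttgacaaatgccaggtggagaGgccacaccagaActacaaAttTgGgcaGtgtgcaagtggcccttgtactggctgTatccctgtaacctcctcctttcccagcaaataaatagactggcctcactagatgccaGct

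Counted from 1 at the 5′ end, with the base of Cyp3a25 first, the closest-spaced differences are G153A, C156T, A158G and T162G. Each stretch holds the nuclear receptor core site AGGTCA once on each strand. The promoter of Cyp3a11, the member with the highest mean CPM on both diets, is shown from chr5:145879965-145880104 on the minus strand, with an AGGTCA site and an AGTTCA site, the latter on the opposite strand, in capitals.
Cyp3a11: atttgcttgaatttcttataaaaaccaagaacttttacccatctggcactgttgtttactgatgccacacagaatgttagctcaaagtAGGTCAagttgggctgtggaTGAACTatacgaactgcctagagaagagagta

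Among 32851 RefSeq windows of 250 bases before a start, searched on both strands, 14.0% held AGGTCA and 11.8% held AGTTCA. The window of Cyp3a44 held AGGTCA once and that of Cyp3a41a AGTTCA once, and those of Cyp3a13 and Cyp3a16 held neither. The paired arrangements DR3, DR4 and ER6 of these core sites were found in none of the 7 windows and in 0.0122%, 0.0244% and 0.00913% of all windows. The D box, searched as TTACGTAA or TTATGTAA, was found in none of the 7 and in 0.931% of all. These matches describe letters, not bound sites.

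The similarity of the transcripts limits how well their reads can be told apart. The longest coding transcripts of Cyp3a25 and Cyp3a59 were identical at 97.04% of 1990 aligned bases, gaps left out, and 24.7% of the 50-base windows of Cyp3a59 also occurred in Cyp3a25. With 100-base windows this share was 5.61%. In Cyp3a11, 85.3% of 50-base windows occurred in no other Cyp3a gene compared, and in Cyp3a13 all did. In Cyp3a41a it was 1.39%, since 93.7% of its windows also occur in its copy Cyp3a41b, which was not analysed here. The sources used here give neither read length nor the handling of reads with several matches.

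Libraries held 26643020 to 30013106 counts. After a filter on low counts 14088 genes were tested with edgeR's quasi-likelihood test over all 8 libraries, and a gene was called at a Benjamini-Hochberg adjusted p below 0.05. Levels are CPM, counts put on one scale of library size, after TMM scaling, a trimmed mean that balances library composition, and 1 count was worth 0.0338 to 0.0388 CPM. Differences are log2 fold changes of high-fat over control with their standard error. The Y-linked gene Ddx3y had 2988 to 4279 counts and Xist 0 to 4 in every library. The adipocyte marker Adipoq reached 42 counts in control replicate 1 and 32 in control replicate 4, against 0 to 10 in the other 6 libraries. In bulk tissue, fewer cells of a type and less RNA per cell cannot be told apart.

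Hepatic Cyp3a11, Cyp3a25 and Cyp3a59 were higher on the high-fat diet, and Cyp3a13 was not called. Of the 7 members 4 passed the filter, and edgeR called 3 of them higher and 0 lower, where 3.75% of all tested genes were called higher and 5.86% lower. DESeq2 and limma-voom gave the same counts, and all 4 log2 fold changes were above 0. Since the members and the gene lists below were chosen with earlier results known, the shares of all genes serve as background and not as a test. In either direction 9.61% of all tested genes were called, 529 higher and 825 lower, a split that became 1111 and 534 when library totals replaced the TMM factors. For the 3 called members every high-fat liver lay above every control liver, as it did for 7.28% of all tested genes, and no member had the opposite order, which 9.97% of all tested genes had.

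Cyp3a11 (ENSMUSG00000056035.8) was at 281, 190.4, 607 and 218 CPM in control replicates 1 to 4. On the high-fat diet it was at 693, 721, 1497 and 1377 CPM. The diets did not overlap, but they came close, since the lowest high-fat liver was 1.14 times the highest control, replicate 3. Its mean was 324 CPM on the control diet (SD 192, n = 4) and 1072 CPM on the high-fat diet (SD 424, n = 4). The log2 fold change was 1.73 ± 0.40 (SE), with a 95% interval from 0.82 to 2.63 (edgeR adjusted p = 0.0282). It was the most variable tested member, with a coefficient of variation of 59.3% among controls and 39.6% among high-fat livers. The call was lost in 5 of 8 repeats that left out 1 liver (control replicates 1, 2 and 4, high-fat replicates 3 and 4), where the log2 fold change was 1.52 to 1.66 and the edgeR adjusted p 0.0592 to 0.0778. Without both control livers that held Adipoq it was 1.42 (edgeR adjusted p = 0.163), and without control replicate 3 it was 2.22 (edgeR adjusted p = 0.00523).

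Cyp3a25 (ENSMUSG00000029630.15), a form expressed in adult liver, was at 187, 176, 238 and 235 CPM in the control livers. The high-fat livers had 282, 324, 329 and 329 CPM. Its fitted log2 fold change was the smallest of the 3 called. It had a coefficient of variation of 15.2% among controls and 7.08% among high-fat livers. The means were 209 ± 31.8 and 316 ± 22.4 CPM (SD, n = 4 each). The log2 fold change was 0.59 ± 0.11 (SE; 95% interval 0.35 to 0.84; edgeR adjusted p = 0.0118).

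Cyp3a59 (ENSMUSG00000061292.10) was a minor transcript, with 93, 102, 139 and 100 counts in the control livers and 363, 290, 445 and 417 in the high-fat livers. These counts correspond to 3.61, 3.77, 4.77 and 3.65 CPM and to 12.6, 10.3, 15.1 and 15.1 CPM. The gap between the diets was wide, with the lowest high-fat liver at 2.16 times the highest control. The means were 3.95 ± 0.548 and 13.3 ± 2.32 CPM (SD, n = 4 each). The log2 fold change was 1.74 ± 0.15 (SE; 95% interval 1.40 to 2.09; edgeR adjusted p = 0.000814), the 13th smallest p of all tested genes. Reads shared with Cyp3a25 could be split between both genes in a way that cannot be checked here.

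Cyp3a13 (ENSMUSG00000029727.7), a form of liver and intestine that lies outside the cluster, was at 153, 133, 138 and 130.5 CPM on the control diet and at 173, 171, 109 and 142 CPM on the high-fat diet. The high-fat livers lay on both sides of the controls. The means were 139 ± 10.3 and 149 ± 29.8 CPM (SD, n = 4 each), and the log2 fold change was 0.10 ± 0.14 (SE; edgeR adjusted p = 0.696). Its 95% interval, from -0.20 to 0.41, leaves room for a small change in either direction. The processed pseudogene Gm15502 overlaps it on the same strand with 0.0655% of its mean count.

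**Figure D1:**
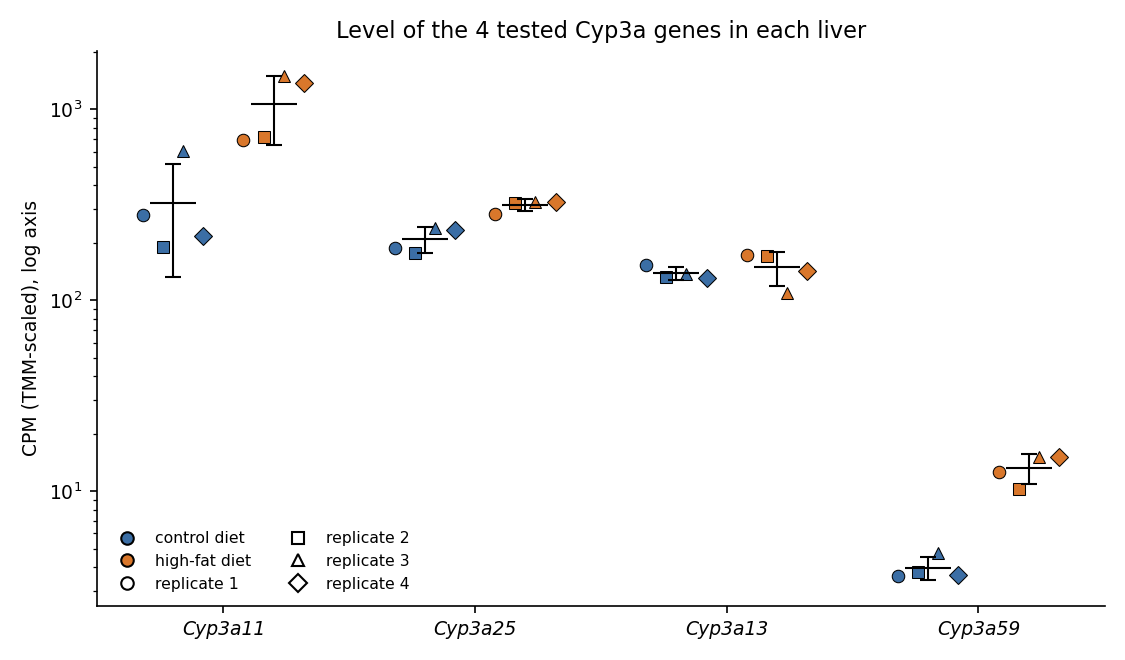
CPM of the 4 tested members on a log axis, 1 symbol per liver with its shape giving the replicate, and the mean with its SD (n = 4). For Cyp3a11, Cyp3a25 and Cyp3a59 the 4 high-fat livers lie above all control livers, while for Cyp3a13 the diets overlap.

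The other 3 members had too few counts to pass the filter. Cyp3a44 had 3, 5, 6 and 2 counts in the control livers and 16, 5, 5 and 13 in the high-fat livers. Cyp3a16 had 0, 2, 7 and 0 counts and then 6, 3, 10 and 6. Cyp3a41a had 0 counts in all controls and 3, 0, 1 and 0 in the high-fat livers. The diets overlapped for each of these genes, and Cyp3a41a never exceeded the 3 counts that a count of 0 allows in a library, equal to 0.102 to 0.116 CPM, so no fold is given for it. Without the filter, edgeR gave Cyp3a44 a log2 fold change of 1.20 ± 0.55 (SE; adjusted p = 0.308) and Cyp3a16 one of 1.37 ± 0.78 (SE; adjusted p = 0.455). When the minor Cyp3a rows, these 3 and the pseudogene Cyp3a63-ps, were summed into 1, the log2 fold change was 1.26 ± 0.49 (SE; edgeR adjusted p = 0.142). Of the 50-base windows of Cyp3a44 and Cyp3a16, 6.95% and 6.13% also occurred in Cyp3a11, which had 5147 to 44254 counts. A part of Cyp3a11 reads in these low counts was not tested. Of 9 Cyp3a rows in the table, Cyp3a57 and Cyp3a63-ps are no members. Cyp3a57 had 3, 0, 5 and 4 counts in the control livers and 8, 5, 7 and 13 in the high-fat livers, which touch at 5.

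**Figure D2:**
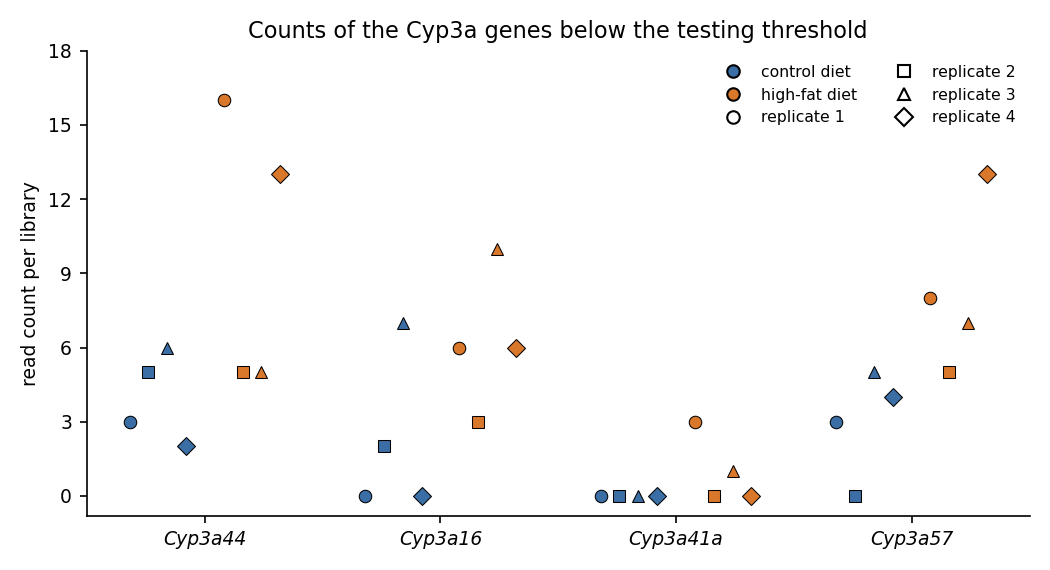
Raw counts per liver of Cyp3a44, Cyp3a16, Cyp3a41a and of Cyp3a57, which is no member, with the shape of a symbol giving the replicate. None exceeds 16 counts, and the diets overlap for each of the 3 members.

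Per kilobase of the longest coding transcript, the order of the means was Cyp3a11, Cyp3a25, Cyp3a13, Cyp3a59, then Cyp3a44, Cyp3a16 and Cyp3a41a on both diets. On the control diet Cyp3a11 stood at 138 ± 82.1 CPM per kb (SD, n = 4) and Cyp3a25 at 105 ± 15.9 CPM per kb. Their ranges, 81.2 to 259 and 88.1 to 119 CPM per kb, overlapped, so this pair has no firm order there. On the high-fat diet the level of Cyp3a11 was 457 ± 181 CPM per kb and that of Cyp3a25 was 158 ± 11.2 CPM per kb, without overlap. Cyp3a13, at 46.9 ± 3.48 and 50.3 ± 10.1 CPM per kb, and Cyp3a59, at 1.99 ± 0.276 and 6.66 ± 1.17 CPM per kb, were separate from their neighbours on both diets. With the length of all annotated exons, which for Cyp3a11 include a retained intron, the control mean of Cyp3a11 was 63.7 CPM per kb against 100.4 CPM per kb for Cyp3a25, so the order at the top reversed. Among 96 coding Cyp genes ranked by mean CPM per kb, Cyp3a11 was number 14 on the control diet and number 4 on the high-fat diet, and Cyp3a25 moved from 18 to 14.

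The family as a whole had 626, 504, 988 and 587 CPM in the control livers and 1162, 1226, 1951 and 1863 CPM in the high-fat livers. The diets did not overlap, and the summed means were 676 ± 214 and 1550.5 ± 414 CPM (SD, n = 4 each). Cyp3a11 supplied 45.0, 37.8, 61.4 and 37.1% of the members' counts in the control livers. In the high-fat livers it supplied 59.7, 58.8, 76.8 and 73.9%. The shares overlap because control replicate 3 exceeds high-fat replicates 1 and 2. The mean share of Cyp3a25 was 32.3 ± 6.83% on the control diet and 21.3 ± 4.77% on the high-fat diet, and that of Cyp3a13 was 21.8 ± 5.48% and 10.5 ± 4.58%. Cyp3a59 supplied at most 1.08% in any liver.

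**Figure D3:**
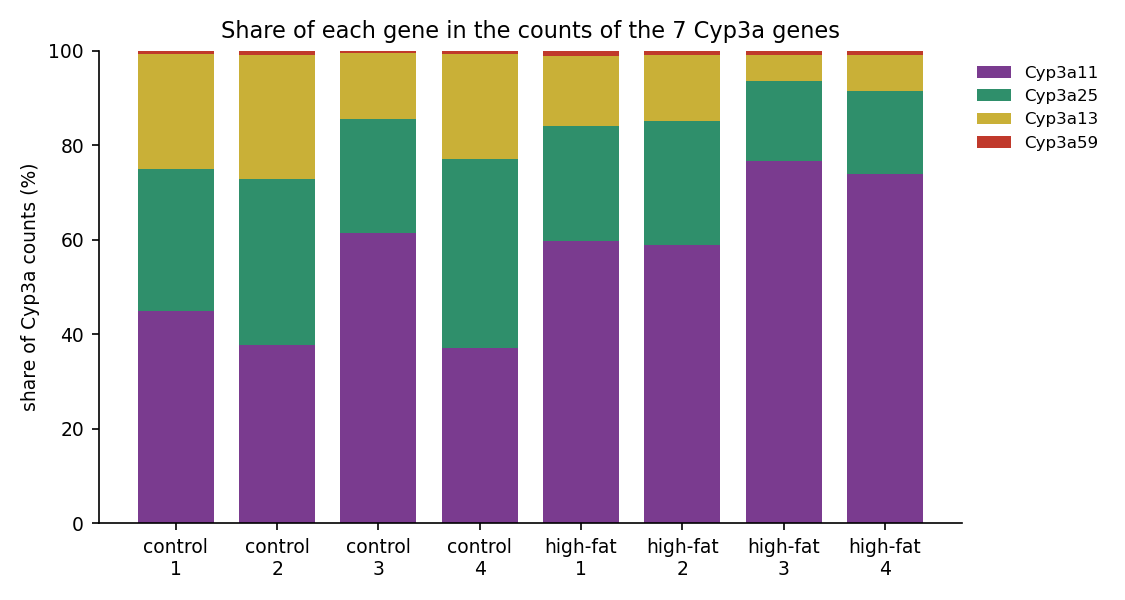
Percent of the members' summed counts held by Cyp3a11, Cyp3a25, Cyp3a13 and Cyp3a59 in each of the 8 livers, as stacked bars. Cyp3a11 takes 37.1 to 61.4% in control livers and 58.8 to 76.8% in high-fat livers.

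A ratio of 2 members within a library does not depend on library scaling, so the log2 ratios of the 6 pairs of tested members were compared between the diets with exact two-sided permutation tests of the means (70 splits, smallest possible p = 0.0286). Cyp3a25 over Cyp3a59 was 5.69, 5.54, 5.64 and 6.00 in the control livers and 4.49, 4.98, 4.45 and 4.44 in the high-fat livers. The diets did not overlap, and the difference was -1.13 ± 0.16 (SE; exact permutation p = 0.0286; 0.0857 after Benjamini-Hochberg adjustment over 6 pairs). In counts, there were 46.7 to 64.3 of Cyp3a25 per count of Cyp3a59 in control livers and 21.7 to 31.5 in high-fat livers.

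Cyp3a13 over Cyp3a59 also separated the diets, from 4.85 to 5.40 in controls against 2.86 to 4.05, a difference of -1.65 ± 0.29 (SE; exact permutation p = 0.0286, adjusted 0.0857). Cyp3a11 over Cyp3a13 differed by 1.72 ± 0.57 (SE; exact permutation p = 0.0857, adjusted 0.129) and Cyp3a11 over Cyp3a25 by 1.19 ± 0.42 (SE; exact permutation p = 0.0857, adjusted 0.129). Both overlapped because of control replicate 3. Cyp3a13 over Cyp3a25 differed by -0.52 ± 0.23 (SE; exact permutation p = 0.114, adjusted 0.137). The ratio of Cyp3a11 to Cyp3a59 was 6.20 ± 0.58 and 6.26 ± 0.38 (SD, n = 4 each) and differed by 0.06 ± 0.35 (SE; exact permutation p = 0.886), with a sign that changed in 4 of 8 leave-one-out repeats. No pair passed 0.05 after adjustment. The design limits this result, since even pairs at the smallest possible p of 0.0286 had an adjusted p of 0.0857. A pair could pass only if several pairs reached that smallest p together, so equal responses cannot be concluded. Without control replicate 3, the ratios 11/13, 11/25, 13/59 and 25/59 each had an adjusted exact permutation p of 0.0429, and in the other 7 repeats that left out 1 liver these adjusted p-values were 0.0571 to 0.24.

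**Figure D4:**
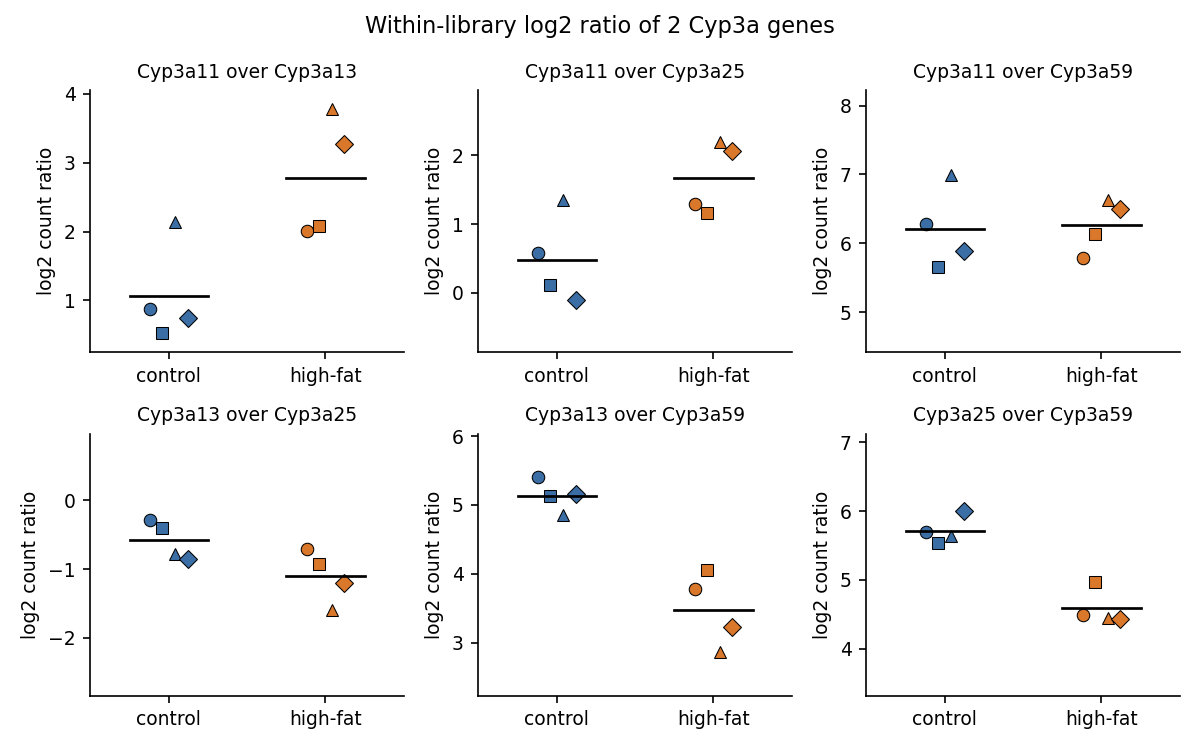
Log2 ratios of counts between members within each liver, for the 6 pairs, with a line at the mean of each diet (n = 4). Cyp3a25 over Cyp3a59 and Cyp3a13 over Cyp3a59 do not overlap between the diets, and Cyp3a11 over Cyp3a59 has nearly equal means.

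None of the nearest tested genes beside the cluster was called. Zkscan5, Zfp655, Zscan25 and Rnf6 had log2 fold changes of -0.04, -0.04, -0.04 and -0.06 (edgeR adjusted p from 0.671 to 0.922).

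Receptors and regulators of Cyp3a were next examined. Of 23 listed genes 22 were tested, and 1 was called higher and 1 lower, with a median log2 fold change of 0.04 against 0.01 over all tested genes. Nr1i3, which encodes CAR, was at 43.2, 39.2, 61.4 and 65.4 CPM and on the high-fat diet at 96.2, 104, 99.7 and 81.9 CPM. It rose without overlap by 0.87 ± 0.16 (SE; edgeR adjusted p = 0.0122). Nr1i2, which encodes PXR, was at 47.1, 42.0, 60.7 and 55.8 CPM and then at 61.1, 69.5, 55.4 and 71.6 CPM. The diets overlapped and it was not called (0.33 ± 0.12 SE; edgeR adjusted p = 0.139). Ppargc1a, a coactivator induced by fasting, was at 8.50, 10.1, 13.0 and 7.27 CPM and fell to 4.67, 5.46, 4.64 and 3.92 CPM (-1.06 ± 0.18 SE; edgeR adjusted p = 0.00936). The partner receptor Rxra (0.17 ± 0.07 SE; edgeR adjusted p = 0.187) and the hepatocyte factor Hnf4a (0.02 ± 0.09 SE; edgeR adjusted p = 0.921) were not called. With library totals in place of TMM factors, 4 genes of this list were called higher and 1 lower, while the median of all genes moved to 0.10.

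Other known CAR and PXR targets, 34 tested of 40 listed, had 10 called higher and 1 lower, with a median of 0.34. Cyp2b10, the classic CAR target, was at 0 to 0.110 CPM in controls and at 0.865, 0.673, 1.89 and 0.908 CPM on the high-fat diet, so that its level was low in every liver. It is 1 of the 10 genes called higher (edgeR adjusted p = 0.00472). It passed the filter through the high-fat livers alone, since the control livers held 0 to 3 counts of it. The size of its fitted fold change depends on the count that the fit adds to such values, and no fold is given. Abcc3, an exporter of conjugates, was at 54.6, 54.5, 155 and 130.1 CPM and rose to 246, 273, 342 and 246 CPM (1.49 ± 0.34 SE; edgeR adjusted p = 0.0241). Tsku rose by 1.69 ± 0.20 (SE; edgeR adjusted p = 0.00235) and Cyp2a5, the mouse coumarin hydroxylase, by 1.36 ± 0.31 (SE; edgeR adjusted p = 0.0241). Aldh1b1, a mitochondrial aldehyde dehydrogenase, fell by 0.32 on the log2 scale (SE 0.06; edgeR adjusted p = 0.0141). With library totals 13 were called higher and 0 lower.

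Of 18 tested genes of electron and heme supply 2 were called higher and 2 lower, with a median of -0.04 that became 0.06 with library totals. Por, the electron donor of all microsomal P450 enzymes and also a member of the CAR and PXR list, was at 55.4, 65.2, 67.9 and 96.2 CPM in the control livers and at 133, 223, 232 and 148 CPM in the high-fat livers. It rose without overlap (1.37 ± 0.22 SE; edgeR adjusted p = 0.00672), and so did the biliverdin reductase gene Blvrb (0.67 ± 0.10 SE; edgeR adjusted p = 0.00598). Cyb5b, the mitochondrial outer membrane cytochrome b5 (-0.34 ± 0.07 SE; edgeR adjusted p = 0.0132), and the cytochrome b5 reductase gene Cyb5r3 (-0.55 ± 0.13 SE; edgeR adjusted p = 0.0266) fell.

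**Figure D5:**
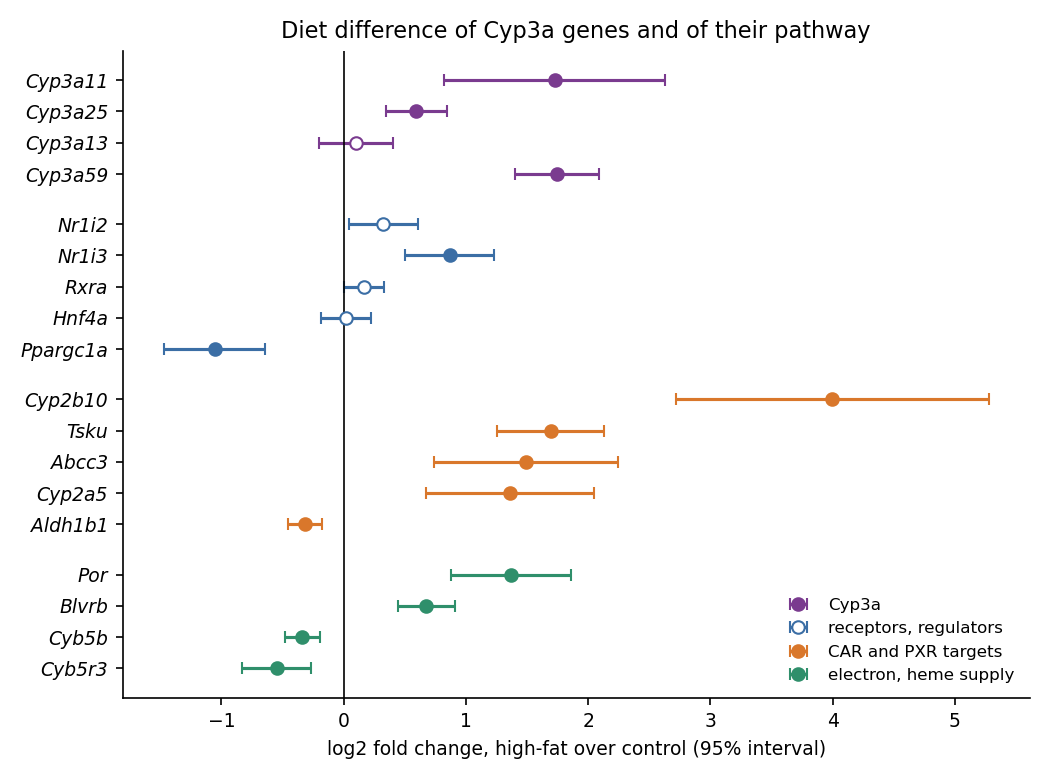
Log2 fold changes of high-fat over control with 95% intervals for the 4 tested members and for receptors, regulators, targets and electron-supply genes, with filled symbols for called genes and open ones for the others. Cyp3a59 (1.74) and Cyp3a11 (1.73) lie beside Tsku (1.69) and Por (1.37), and Nr1i2 (0.33) is among the genes not called. The symbol of Cyp2b10 rests on 0 to 3 counts in the control livers, and its size is not read.

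Several groups moved beside these changes, and their part in the rise of the Cyp3a transcripts was not tested. Of 7 hepatocyte markers edgeR called 4 lower (3 with library totals), limma-voom 5 and DESeq2 all 7, with a median of -0.61 and a summed level of 73555 to 108047 CPM in controls and 57648 to 63344 CPM on the high-fat diet. Most of this sum was Alb, at 40443 to 77965 CPM in controls and 39225 to 40855 CPM on the high-fat diet. Alb overlapped between the diets and was not called by edgeR (adjusted p = 0.151). Of 16 clock genes 7 were called higher and 3 lower (7 and 2 with library totals). Ciart, 1 of those higher, held 4 to 9 counts in control livers and passed the filter through the high-fat livers alone. Dbp, a clock output factor, was at 0.815, 1.22, 1.27 and 1.94 CPM and rose to 13.0, 17.96, 30.9 and 9.26 CPM (3.75 ± 0.41 SE; edgeR adjusted p = 0.00173). The core clock activator Arntl fell by 1.05 on the log2 scale (SE 0.19; edgeR adjusted p = 0.0102). No source used here gives the collection time, and its part was not tested.

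Markers of other cells gave few calls. None of the 20 tested markers of cholangiocytes, Kupffer cells, stellate cells and endothelial cells was called by edgeR. Without adjustment 4 of the 20 had a p below 0.05, all higher, and DESeq2 called 1, an endothelial marker, higher. The summed levels in control and high-fat livers were 35.3 to 67.1 and 44.1 to 89.6 CPM for cholangiocytes, 302 to 645 and 349 to 593 CPM for Kupffer cells, 271 to 358 and 295 to 578 CPM for stellate cells, and 321 to 377 and 327 to 375 CPM for endothelial cells. The highest stellate sum was that of high-fat replicate 3, with Col1a1 at 54.9 and Col3a1 at 314 CPM. In the other high-fat livers these were at 8.25 to 13.7 and 81.4 to 113 CPM. The same liver had the highest Cyp3a11, at 1497 CPM, and a link was not tested. Cfd was the only tested adipocyte marker of 5 and was higher (4.74 ± 0.70 SE; edgeR adjusted p = 0.00525), with a summed level of 0.111 to 5.36 CPM for the list in controls and 18.7 to 74.3 CPM on the high-fat diet. Cfd alone makes up nearly all of the high-fat sums, at 18.5 to 74.0 CPM. The other 4 adipocyte markers were not tested, and Plin1 had 34, 0, 0 and 22 counts in controls and 0, 1, 1 and 9 on the high-fat diet, so that like Adipoq it was highest in control replicates 1 and 4. Intestine also expresses Cyp3a13, and a part of intestinal RNA in these samples was not tested. The enterocyte markers Lct and Sis had 0 to 4 and 0 to 1 counts. Vil1 had 16 counts in control replicate 1 and 1 to 5 in the other livers. Fabp2, also made by liver, was the 1 enterocyte gene called higher of 2 tested (0.85 ± 0.16 SE; edgeR adjusted p = 0.0125). The list's summed level, 815 to 3370 CPM in controls and 1459 to 3996 CPM on the high-fat diet, was mostly that of Apoa4, an apolipoprotein gene also expressed in liver. Apoa4 was at 688 to 3208 CPM in controls and at 1258 to 3787 CPM on the high-fat diet, overlapped between the diets and was not called (edgeR adjusted p = 0.410).

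Because Cyp3a41a and Cyp3a44 are female-predominant, lists of sex-biased liver genes were also counted. Of 19 listed female-biased genes 12 were tested, and 4 were called higher and 0 lower, with a median of 0.88. Of 20 male-biased genes 0 were called higher and 7 lower, with a median of -0.83. The female-biased count and median include genes that passed the filter only with the high-fat livers, among them Cyp2a4 and Slc22a27. Slc22a27 had 10, 7, 16 and 9 counts in controls. That count and median are therefore not read as a result about the list. At an unadjusted p below 0.05, 2 female-biased genes were lower and 0 male-biased genes higher, and DESeq2 called 0 in either of these directions. Cyp2a4, a female-biased steroid hydroxylase, was at 0.0731 to 0.206 CPM in controls and at 3.29, 1.35, 18.7 and 1.998 CPM, and edgeR called it higher (adjusted p = 0.0134). It passed the filter through the high-fat livers alone, since the controls held 2, 3, 6 and 2 counts, and no fold is given. Trim24 rose by 1.07 ± 0.13 (SE; edgeR adjusted p = 0.00251). Moxd1, a male-biased gene, was at 370, 311, 59.3 and 234 CPM and fell to 45.6, 24.0, 3.32 and 21.1 CPM (-3.37 ± 0.73 SE; edgeR adjusted p = 0.0206), and Slco1a1, an organic anion carrier, fell by 0.88 on the log2 scale (SE 0.22; edgeR adjusted p = 0.0355). Of 11 growth hormone signalling genes Stat5b was the 1 called, lower by -0.50 ± 0.11 (SE; edgeR adjusted p = 0.0190). Within the Cyp3a members the 2 female-predominant forms stayed at 16 counts or fewer in every liver. For Cyp3a41a the count is also limited by the sequence it shares with Cyp3a41b.

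Finally, the tested coding genes outside the family whose log2 CPM over the 8 libraries, centred on the gene's mean, lay nearest to each called member were listed among 9513 genes. This pattern includes the diet difference. For Cyp3a11 they were Wfdc2, Acot2 and 2010003K11Rik, with a root mean squared difference of 0.28 to 0.33 against a median of 1.08 over all genes. For Cyp3a25 they were Hsdl2, Slc25a20 and Hsd17b4, at 0.05 to 0.07 against a median of 0.37. For Cyp3a59 they were Stap1, Anxa2 and Gpc1, at 0.26 against a median of 0.90.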

How the data were processed

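Total RNA from 8 flash-frozen livers was isolated with a mirVana kit and sequenced from TruSeq Stranded Total RNA libraries, per the labels' protocols. The authors deposited counts, as whole numbers, for each gene of 1 table together with identifiers, names and coordinates. The submitters' processing notes name TopHat2 2.1.1, Trimmomatic 0.32, bcl2fastq 2.20.0.422 and the build mm10. How reads were counted, with which strand setting and which gene models, is not given in the sources used here, and the division of reads among near-copies is therefore unknown. Groups came from the diet label. The labels do not say how the livers relate beyond being biological replicates, and p-values measure the spread between these samples.

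Of 28073 rows, 26673 had a count and 14088 passed edgeR's filterByExpr, with 99.93% of all counts. In R 4.3.3, edgeR 4.0.16 fitted quasi-likelihood models with TMM factors over all genes, and p-values were adjusted by the Benjamini-Hochberg method (threshold 0.05). Factors were 0.955 to 0.976 in control and 1.02 to 1.07 in high-fat libraries. Alternatives were other scaling factors, DESeq2 1.42.0, limma-voom (limma 3.58.1), other low-count filters, removal of the 10 most abundant genes, summing of the minor Cyp3a rows, and leaving out libraries. The model was also run on simulated counts. Their spread followed abundance alone, so that run does not bear on a gene as variable as Cyp3a11. Log2 ratios of counts, with 0.5 added, were compared by exact permutation for the 6 pairs of members with at least 1 CPM. Floors of 3 counts cover counting error only. Nearest profiles used log2(CPM + 0.1) of genes averaging 5 CPM or more.

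Transcripts were read from GENCODE M21, which holds 99.48% of the table's rows by ID, and promoters from RefSeq (GRCm38.p6). Python 3.11.15 with Biopython 1.88 aligned them.

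The members and the gene lists were chosen with earlier results of these data known. Named genes were the members, the other Cyp3a rows, some called genes of the lists, the genes Nr1i2, Nr1i3, Rxra, Hnf4a, Por, Cyp2b10 and Dbp, the 3 nearest profiles of each called member, and sex-check genes. The called genes named from a list were not always those with the smallest p. In several lists a gene described had a larger edgeR p than others of its list. Those with a smaller p include Susd4 and Cyp2u1 (male-biased), Slc22a27 (female-biased), Ciart, Per3 and Tef (clock), and Cyp2c67 and Cyp2c39 (drug-metabolising P450). Neighbours of the cluster and cell type markers were named after their values were seen.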

Additional observations from a re-analysis of the deposited data

Results flagged for a closer look

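In 13 groups of 4 livers examined for a value standing far from the others (a gap to the nearest that exceeds Dixon's 95% critical share of the range), 2 were found, and chance alone gives about 1 in 20 groups. Cyp3a25 in high-fat replicate 1 was the lowest of its diet at 282.5 CPM, with the nearest liver at 323.7 CPM and a gap of 0.893 of the range. It remained above every control liver. Cyp3a59 in control replicate 3 was the highest of its diet at 4.767 CPM, with the nearest liver at 3.774 CPM and a gap of 0.857 of the range. The same liver had the highest control value of Cyp3a11, at 607 CPM.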

How the results depend on the processing

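Over 18 alternatives, 2 to 3 members were called higher and 0 lower. Cyp3a25 (log2 fold change 0.52 to 0.69, adjusted p 3.32e-05 to 0.0424) and Cyp3a59 (1.63 to 1.85, adjusted p 3.72e-21 to 0.00717) kept their call in each, and Cyp3a13 (0.03 to 0.22, adjusted p 0.224 to 0.940) was called in none. Cyp3a11 ranged from 1.42 to 2.22 (adjusted p 0.0035 to 0.163). Leaving out 1 library gave 1.52 to 2.22, with the call lost in 5 of 8 cases, and leaving out both controls with adipose transcripts gave 1.42. The cause was not tested.

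Over all genes, 529 were called higher and 825 lower. Library totals gave 1111 and 534, DESeq2 gave 810 and 1160, and leaving out both controls with adipose transcripts gave 282 and 461. Leaving out 1 library gave 293 to 636 higher and 432 to 843 lower. With fewer libraries the fit has fewer samples.

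The ratio of Cyp3a11 to Cyp3a59 had no stable sign: leaving out 1 library gave -0.12 to 0.32, with -0.12 and -0.04 on leaving out control replicates 2 and 4, and -0.06 and -0.02 on leaving out high-fat replicates 3 and 4. For the other pairs these ranges were 1.39 to 2.07 (Cyp3a11 over Cyp3a13), 0.99 to 1.48 (Cyp3a11 over Cyp3a25), -0.66 to -0.36 (Cyp3a13 over Cyp3a25), -1.84 to -1.45 (Cyp3a13 over Cyp3a59) and -1.26 to -1.04 (Cyp3a25 over Cyp3a59).

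No paired analysis was possible because the labels give no pairing of livers across diets. Depth limits Cyp3a16, Cyp3a41a and Cyp3a44, which had at most 16 counts in a library. Shared sequence also limits Cyp3a41a, since 1.39% of its 50-base windows occurred in no other Cyp3a gene compared. To a smaller extent it limits Cyp3a44 and Cyp3a16, which share 6.95% and 6.13% of their 50-base windows with the far more abundant Cyp3a11. How reads with several matches were handled is not known.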

Other observations

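Other P450 genes moved in both directions. Of 21 tested drug-metabolising P450 genes outside the Cyp3a family, 3 were called higher and 3 lower by edgeR. This list leaves out the P450 genes counted above among the CAR and PXR targets. Of those, edgeR called Cyp2a5, Cyp2b10 and Cyp2c29 (0.85 ± 0.20 SE, edgeR adjusted p = 0.0307) higher and none lower. Cyp2c38 rose from 3.40 to 20.6 CPM in controls to 36.2 to 71.8 CPM on the high-fat diet (2.34 ± 0.51 SE; edgeR adjusted p = 0.0206), and Cyp1a2, which metabolises caffeine, was lower by -1.03 ± 0.20 (SE; edgeR adjusted p = 0.0127). Of 10 steroid and bile acid P450 genes, 2 were called lower, and 0 higher by edgeR or DESeq2 (1 at an unadjusted p below 0.05). Cyp51, a sterol demethylase of cholesterol synthesis, was at 221, 306, 221 and 166 CPM in controls and at 50.03, 51.5, 49.7 and 55.1 CPM on the high-fat diet (-2.15 ± 0.16 SE; edgeR adjusted p = 0.000598).

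Genes known for periportal expression were called lower in 6 of 13 cases (3 with library totals) and higher in 0 by edgeR or DESeq2, none of them higher at an unadjusted p below 0.05, with a median log2 fold change of -0.38. Cdh1, the epithelial cadherin, was at 58.8, 47.7, 36.0 and 29.96 CPM in controls and at 17.2, 12.1, 6.50 and 12.6 CPM on the high-fat diet (-1.83 ± 0.29 SE; edgeR adjusted p = 0.00632). Of 14 pericentral genes, 1 was called higher (3 with library totals), Slc13a3 (0.84 ± 0.11 SE; edgeR adjusted p = 0.00400), and 1 lower, Cyp1a2.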
